A study of Mus musculus with 8 samples.

Results

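The transcripts of the AP-1 family were measured in osteoclast precursor (OCP) cells treated with extracellular peroxiredoxin 1 (PRDX1), with RANKL, the cytokine that drives osteoclast differentiation, or with both. The 10 members examined were Fos, Fosb, Fosl1, Fosl2, Jun, Junb, Jund, Atf3, Batf and Batf3, taken by gene symbol from the 25124 genes of the deposited expression table. The study compared 4 groups of 2 RNA-seq libraries each, and in all of them the cells were kept in M-CSF, the growth factor of macrophages and their precursors. The untreated cells, no PRDX1 + no RANKL, received M-CSF alone, PRDX1 + no RANKL added 200 nM PRDX1, no PRDX1 + RANKL added 100 ng/mL RANKL, and PRDX1 + RANKL added both, each for 48 h. The cells came from the bone marrow of mice aged 6 to 8 weeks, C57BL/6 per the labels, whereas the culture methods of the study name ICR mice. After 16 h in 5 ng/mL M-CSF, the cells that had not adhered were grown in 30 ng/mL M-CSF for 3 days, and the adherent cells were used. The PRDX1 was a His-tagged protein made in Escherichia coli and treated with an endotoxin removal resin. The study included heat-inactivated PRDX1 in its osteoclast formation assay, but such a sample was not among the libraries. Nothing in the labels says whether the 2 libraries of a group came from separate mice or cultures, so p-values measure the spread between these libraries.

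AP-1 is a dimer of basic leucine zipper (bZIP) proteins that binds DNA to activate or repress transcription. Fos proteins need a Jun protein as partner, Jun proteins can also pair with one another, and Atf3 and the Batf proteins bind mainly as partners of Jun proteins. In myeloid cells RANKL raises c-Fos, without which osteoclasts do not form and Nfatc1, the main regulator of osteoclast genes, is not induced. Ligands of Toll-like receptor 4 (TLR4), the receptor that the study assigns to PRDX1, are known to induce AP-1 genes in macrophages.

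The libraries held 24542578 to 41712970 reads on genes, and values are given as FPKM, fragments scaled to transcript length and library total, so that levels can be set side by side between genes. Log2(FPKM + 1) was compared by limma in one model of the 4 groups, over 11700 genes that averaged 0.5 FPKM or more. A call needed both a p-value below 0.05 after Benjamini-Hochberg adjustment and a change of 1.5-fold or more on this scale, which understates the change of low genes. Fosb did not pass the filter on low values, so 9 of the 10 members were tested. The 6 macrophage markers summed to between 2022 and 2046 FPKM in untreated cells, 2298 and 2368 with PRDX1 alone, 1320 and 1437 with RANKL alone and 1739 and 1781 with both treatments, and the 8 osteoclast markers to between 27.4 and 60.3 FPKM in the libraries without RANKL, 1648 to 1764 FPKM with RANKL alone and 208 to 217 FPKM with both treatments. Markers of other cells also moved with PRDX1. The 6 neutrophil markers, of which Ly6g and Camp had a group mean under 0.5 FPKM in each of the 4 groups, summed to between 7.50 and 15.7 FPKM without PRDX1 and between 33.2 and 41.8 FPKM with it, the 5 stromal markers to between 7.83 and 10.8 against 15.2 and 19.3 FPKM, and the 4 B cell markers to between 0.577 and 0.96 against 1.36 and 2.08 FPKM. The 6 dendritic cell markers summed to between 1.66 and 2.22 FPKM without PRDX1 and between 2.31 and 4.41 FPKM with it, a sum that followed Ccr7 while Cd209a had lower means with PRDX1 both without and with RANKL, and Xcr1 with RANKL. The 3 endothelial markers summed to 1.82 FPKM in untreated cells, 3.02 to 3.06 with PRDX1 alone, 3.57 to 3.90 with RANKL alone and 5.16 to 5.54 with both treatments, where Kdr was higher with RANKL alone than in untreated cells and Cdh5 and Pecam1 were lower. The 5 T and NK cell markers summed to between 0.037 and 0.168 FPKM over the 8 libraries. Their part in the AP-1 results was not tested. In these bulk libraries, fewer cells that express a gene and less of its RNA per cell cannot be told apart.

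The promoters of the Fos and Jun genes are known for sites bound by CREB, ATF and AP-1 proteins themselves. RefSeq promoter sequence (GRCm38.p6) matched 9 of the 10 members. In the 250 bases upstream of their start sites, on both strands, the short CRE motif TGACG was present in 5 of 9 (Fos, Fosb, Junb, Batf and Atf3), against 17.8% of 32851 mouse promoters, and the CRE-like motif TGACNTCA in 1 of 9 (Jun), against 7.49% of promoters. The short motif is contained in one form of the CRE-like motif. The AP-1 site TGANTCA (6.75% of promoters), the NF-kB motif (GGGA, any base, then TTTCC, 0.356%) and the CArG box (1.47%) were found in 0 of 9. At shares this low, 0 of 9 does not set these genes apart. Sequence further upstream was not searched, so sites there would have been missed. Below are the 150 bases before the start site of the 3 members that rose with PRDX1 alone and of Jun, with these motifs in capitals. In Fos the short CRE motif lies 129 to 125 and 66 to 62 bases before the start and in Junb 106 to 102 bases before it. The Jun motif TGACATCA lies 45 to 38 bases before the start, and the short motif of Atf3, on the opposite strand as CGTCA, 7 to 3 bases before it.
Fos, chr12:85473740-85473889, plus strand: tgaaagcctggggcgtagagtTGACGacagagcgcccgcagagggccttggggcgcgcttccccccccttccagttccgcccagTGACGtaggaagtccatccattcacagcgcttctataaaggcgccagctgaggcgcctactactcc
Junb, chr8:84978749-84978898, minus strand: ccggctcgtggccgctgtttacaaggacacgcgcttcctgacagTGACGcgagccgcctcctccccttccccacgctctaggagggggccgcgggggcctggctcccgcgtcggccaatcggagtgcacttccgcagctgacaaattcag
Jun, chr4:95052223-95052372, minus strand: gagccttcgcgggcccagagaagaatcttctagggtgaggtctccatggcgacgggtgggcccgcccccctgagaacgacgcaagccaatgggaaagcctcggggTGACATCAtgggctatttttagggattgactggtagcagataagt
Atf3, chr1:191183334-191183483, minus strand: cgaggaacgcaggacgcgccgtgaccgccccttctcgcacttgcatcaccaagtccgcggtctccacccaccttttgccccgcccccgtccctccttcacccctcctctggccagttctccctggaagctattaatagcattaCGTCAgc
A match is a description of the sequence and no evidence of binding in these cells.

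RANKL alone moved 6 of the 9 tested members, in both directions. Fos, Fosl2 and Junb rose, where 11.8% of all tested genes were called higher, and Jun, Atf3 and Batf3 fell, where 9.96% of genes were called lower. In the presence of PRDX1, RANKL raised Fos, Fosl1 and Junb (4.52% of genes called higher) and lowered Atf3 (3.98% called lower). PRDX1 alone raised Fos, Junb and Atf3 and lowered 0 members, while 3.80% of genes were called higher and 1.99% lower by limma; 0 members were lower at an unadjusted p-value under 0.05 or by voom either. Added to RANKL, PRDX1 raised Fosl1, Jun and Atf3, where 6.03% of genes were called higher, and lowered Fosl2, where 4.17% were called lower. The balance over all genes turned with both scalings for RANKL alone and with 1 of them for RANKL in the presence of PRDX1. RANKL alone had 1383 higher and 1165 lower, but 1088 and 1322 after quantile normalization and 1181 and 1270 after upper quartile scaling, and RANKL in the presence of PRDX1 had 529 and 466, 457 and 563 after quantile normalization and 508 and 489 after upper quartile scaling. The number of members called was unchanged by both scalings in these 4 comparisons. These comparisons share libraries with one another, and so their member counts are not independent. The median log2 fold change of the 9 members was 0.31 for RANKL alone (0.0957 over all tested genes), 0.20 for RANKL in the presence of PRDX1 (0.0698), 0.29 for PRDX1 alone (-0.0393) and 0.37 for PRDX1 in the presence of RANKL (-0.0571).

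**Figure D1:**
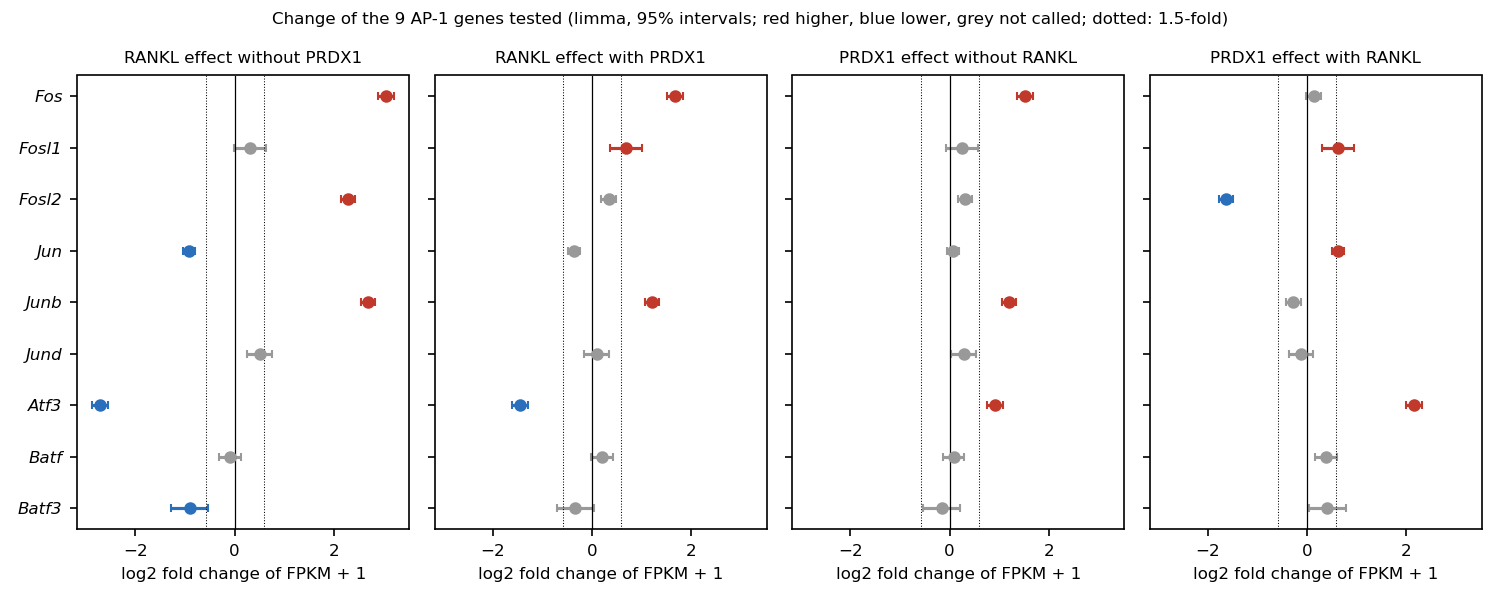
Log2 fold changes of FPKM + 1 of the 9 tested AP-1 genes in 4 comparisons, as points with 95% intervals from limma; red points were called higher, blue points lower, grey points were not called, and dotted lines mark a 1.5-fold change. Atf3 lies on the lower side in both RANKL panels and on the higher side in both PRDX1 panels, at -2.71, -1.45, 0.91 and 2.16.

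Fos (NM_010234, chr12:85473890-85477274 of mm10, plus strand, 4 exons) encodes c-Fos, the member on which osteoclast formation depends. Its FPKM was 13.8 in both libraries of untreated cells, 44.5 and 38.8 with PRDX1 alone, 117 and 127 with RANKL alone, and 128 and 139 with both treatments. All libraries with RANKL were above all without it, PRDX1 alone lay in between without overlapping either side, and both libraries with both treatments were above both with RANKL alone by a narrow margin. RANKL alone raised Fos 8.86-fold in FPKM, a log2 fold change of 3.06 (SE 0.07, limma adjusted p = 4.26e-10). PRDX1 alone raised it 3.02-fold (log2 1.52, SE 0.07, adjusted p = 4.26e-07), which placed it 49th by size among the 445 genes called higher. In the presence of RANKL the effect of PRDX1 was 0.13 on the log2 scale, with a 95% interval from -0.03 to 0.29 (limma adjusted p = 0.182), and was not called. It was 0.22 after quantile normalization and 0.21 after upper quartile scaling, each with an adjusted p-value under 0.05 but under 1.5-fold. Leaving out single libraries gave 0.07 to 0.19. Thus the group order was no PRDX1 + no RANKL, PRDX1 + no RANKL and then the 2 groups with RANKL, whose difference was not called. From no treatment to PRDX1 + RANKL, Fos increased 9.69-fold (log2 3.18, adjusted p = 1.01e-09), in 17th place among 877 genes called higher.

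Fosl2 (NM_008037, chr5:32136472-32157839, plus strand, 4 exons) encodes Fra-2, a Fos protein that lacks the strong activation domain of c-Fos and is involved in osteoclast size and survival. It stood at 5.94 and 6.38 FPKM in untreated cells, 7.60 and 8.17 with PRDX1 alone, 33.7 and 34.0 with RANKL alone, and 10.2 and 10.1 with both treatments. High values were found with RANKL alone, and the 4 groups did not overlap. RANKL alone raised Fosl2 5.49-fold (log2 2.28, SE 0.07, adjusted p = 1.57e-09), and in the presence of RANKL it was 3.32-fold lower with PRDX1 than without (log2 -1.64, SE 0.07, adjusted p = 5.34e-08), 50th among 488 genes called lower. The rise in mean FPKM over untreated cells with both treatments was 14.5% of that with RANKL alone for Fosl2, against 110.5% for Fos and 79.2% for Junb. PRDX1 alone gave 0.31 on the log2 scale (adjusted p = 0.00566) and RANKL in the presence of PRDX1 0.33 (adjusted p = 0.00293). Both were under the 1.5-fold threshold, though PRDX1 + RANKL against neither treatment passed it (log2 0.64, adjusted p = 2.90e-05, 1.65-fold in FPKM). That call was close to the threshold, with 0.60 to 0.69 over the libraries left out.

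Fosl1 (NM_010235, chr19:5447698-5455938, plus strand, 4 exons) encodes Fra-1, which has few reads here. Its FPKM was 1.11 and 0.93 in untreated cells, 1.54 and 1.28 with PRDX1 alone, 1.19 and 1.87 with RANKL alone, and 2.56 and 3.16 with both treatments. The libraries with both treatments were above the other 6, which rested on 55 to 110 reads each, and the 3 remaining groups overlapped in part. PRDX1 in the presence of RANKL gave a log2 fold change of 0.62 (SE 0.14, adjusted p = 0.00602) and RANKL in the presence of PRDX1 0.68 (adjusted p = 0.00414). The first fell under 1.5-fold without no PRDX1 + RANKL replicate 1 (0.42) or PRDX1 + RANKL replicate 2 (0.51), and the second without PRDX1 + RANKL replicate 2 (0.56). In addition, 1163 of the 1864 exon bases of Fosl1 (62.4%, GENCODE M21) overlap Ccdc85b on the opposite strand, which was listed at 3.63 to 4.57 FPKM, and reads were counted without regard to strand, so the Fosl1 values are uncertain.

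Fosb (NM_008036, chr7:19302696-19310045, minus strand, 4 exons), the fourth Fos gene, was near the limit of detection. It had 18 and 16 reads in untreated cells, 17 and 13 with PRDX1 alone, 0 and 1 with RANKL alone, and 4 and 6 with both treatments, all at 0.161 FPKM or less. Libraries with RANKL held fewer reads than those without. Relative to library totals, the read rate was 29.4 times as high with neither treatment as with RANKL alone (exact 95% interval 4.94 to 1197) and 3.97 times as high with PRDX1 alone as with both treatments (1.89 to 9.09). The ratio of no PRDX1 + no RANKL to PRDX1 + no RANKL was 1.06 (0.628 to 1.79), and that of PRDX1 + RANKL to no PRDX1 + RANKL, on 10 reads against 1, was 7.02 (0.999 to 304.6). Intervals cover the counting error of the pooled reads only.

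**Figure D2:**
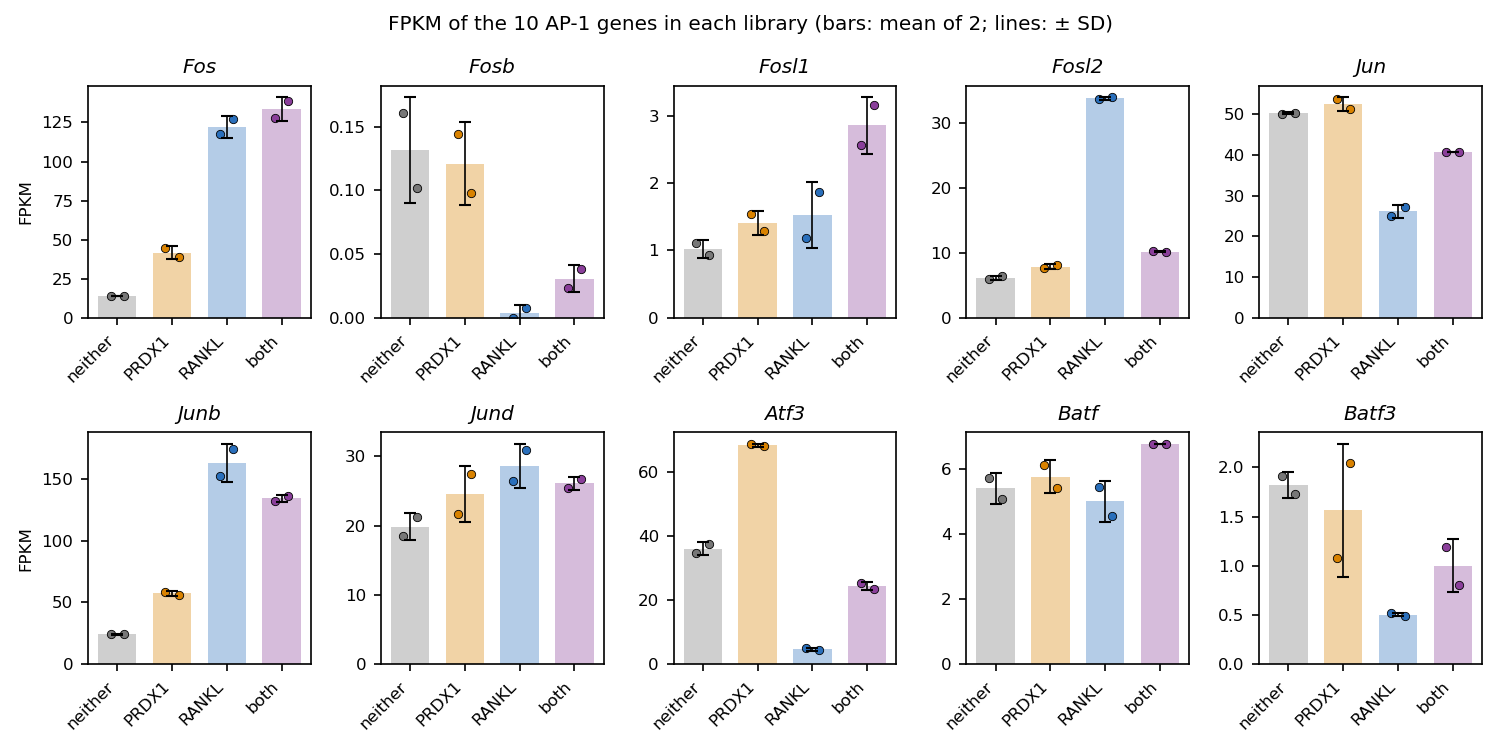
FPKM of each of the 10 AP-1 genes in each library (points), with the mean of 2 libraries (bars) and the SD (lines), for neither treatment, PRDX1 alone, RANKL alone and both; each panel has its own linear axis from 0. Fos and Junb are high in both groups with RANKL, Fosl2 is high with RANKL alone, and Jun and Atf3 are lowest with RANKL alone.

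Of the Jun genes, Junb (NM_008416, chr8:84976909-84978748, minus strand, 1 exon) encodes a Jun protein that activates many AP-1 sites weakly and is an early response gene. Its FPKM was 24.7 and 24.1 in untreated cells, 58.4 and 56.0 with PRDX1 alone, 152 and 174 with RANKL alone, and 132 and 136 with both treatments. As with Fos, the group with PRDX1 alone lay between the untreated cells and the cells with RANKL, and no groups overlapped. RANKL alone raised Junb 6.68-fold (log2 2.69, SE 0.06, adjusted p = 4.31e-10) and PRDX1 alone 2.34-fold (log2 1.20, SE 0.06, adjusted p = 8.56e-07). In the presence of RANKL the change with PRDX1 was -0.28 on the log2 scale (95% interval -0.42 to -0.13, adjusted p = 0.00587), under the 1.5-fold threshold. It was -0.18 without no PRDX1 + RANKL replicate 2, and its adjusted p-value was above 0.05 after quantile normalization. RANKL in the presence of PRDX1 still raised Junb by 1.21 on the log2 scale (adjusted p = 4.53e-07).

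Jun (NM_010591, chr4:95049036-95052222, minus strand, 1 exon) encodes c-Jun, the most common partner of c-Fos. It had 50.1 and 50.4 FPKM in untreated cells, 53.7 and 51.3 with PRDX1 alone, 25.0 and 27.3 with RANKL alone, and 40.7 in both libraries with both treatments. Jun was lowest with RANKL alone, intermediate with both treatments and highest in the 2 groups without RANKL, whose difference did not pass the test (log2 0.06 for PRDX1 alone, 95% interval -0.06 to 0.19, adjusted p = 0.453). RANKL alone lowered Jun 1.92-fold (log2 -0.92, SE 0.06, adjusted p = 3.33e-07). PRDX1 in the presence of RANKL raised it 1.56-fold (log2 0.62, SE 0.06, adjusted p = 1.46e-05), a call close to the threshold that fell under it without no PRDX1 + RANKL replicate 1 (0.56). The log2 fold change for RANKL in the presence of PRDX1 was -0.36 (adjusted p = 6.76e-04), not called. Jun shares 232 of its 3189 exon bases (7.28%) with the antisense gene Junos.

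Jund (NM_010592, chr8:70697739-70700616, plus strand, 1 exon), the Jun gene known for steady expression, varied least among the Jun genes. Values were 18.5 and 21.2 FPKM in untreated cells, 21.7 and 27.5 with PRDX1 alone, 26.4 and 30.9 with RANKL alone, and 25.5 and 26.8 with both treatments. Groups overlapped except that the untreated libraries were below the other 6. RANKL alone gave a log2 fold change of 0.51 (SE 0.11, adjusted p = 0.00299), under 1.5-fold, but was called without no PRDX1 + no RANKL replicate 2 (0.60) or no PRDX1 + RANKL replicate 1 (0.62). PRDX1 gave 0.29 without RANKL (95% interval 0.04 to 0.54, adjusted p = 0.0821) and -0.13 with it (-0.38 to 0.13, adjusted p = 0.401). Single libraries moved both PRDX1 values: the first was 0.45 without PRDX1 + no RANKL replicate 1 and 0.12 without replicate 2 of that group, and the second -0.24 without no PRDX1 + RANKL replicate 1 and -0.0151 without replicate 2. The first had an adjusted p-value under 0.05 by voom, with the replicate block and without PRDX1 + no RANKL replicate 1, but stayed under 1.5-fold. The FPKM of Jund refers to a transcript of 2875 bases, longer than the matched GENCODE M21 transcript of 1668 exon bases. Of these 1668 bases, 877 (52.6%) overlap the antisense gene Gm11175, for which no level was listed. The share of Jund reads affected is therefore unknown, and Jund too is uncertain.

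Atf3 (NM_007498, chr1:191170297-191183333, minus strand, 4 exons) encodes a stress-induced bZIP protein that restrains TLR-induced inflammatory genes in macrophages. It was measured at 34.5 and 37.5 FPKM in untreated cells, 68.6 and 67.9 with PRDX1 alone, 4.99 and 4.35 with RANKL alone, and 25.2 and 23.4 with both treatments. The 4 groups did not overlap, and PRDX1 alone exceeded RANKL alone 14.6-fold, the widest span among the 9 tested members. RANKL alone lowered Atf3 7.71-fold (log2 -2.71, SE 0.07, adjusted p = 8.33e-10), 35th among 1165 genes called lower. PRDX1 raised it 1.90-fold without RANKL (log2 0.91, SE 0.07, adjusted p = 1.30e-05) and 5.20-fold with RANKL (log2 2.16, SE 0.07, adjusted p = 1.65e-08), 24th among the 705 genes called higher. Even so, 2.81-fold less was found with both treatments than with PRDX1 alone (log2 -1.45, adjusted p = 2.88e-07). Against untreated cells, PRDX1 + RANKL had a log2 fold change of -0.55 (adjusted p = 1.62e-04), under the threshold.

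The Batf proteins lack an activation domain of their own and, as partners of Jun proteins, bind composite sites with Irf4 or Irf8. Batf (NM_016767, chr12:85686720-85709087, plus strand, 3 exons) had 5.75 and 5.08 FPKM in untreated cells, 6.14 and 5.42 with PRDX1 alone, 5.46 and 4.57 with RANKL alone, and 6.77 and 6.79 with both treatments. Its groups overlapped apart from PRDX1 + RANKL, which held the 2 highest libraries. It was called in 0 of the 6 pairwise comparisons, with the largest log2 fold change, 0.37 (95% interval 0.16 to 0.59, adjusted p = 0.011), for PRDX1 in the presence of RANKL. Batf3 (NM_030060, chr1:191098414-191108943, plus strand, 3 exons), a factor of cross-presenting dendritic cells, had 1.91 and 1.73 FPKM in untreated cells, 1.08 and 2.04 with PRDX1 alone, 0.518 and 0.491 with RANKL alone, and 1.20 and 0.81 with both treatments. RANKL alone held the 2 lowest libraries, 10 and 12 reads, and the fall was 3.60-fold (log2 -0.90, SE 0.17, adjusted p = 0.00102). PRDX1 changed Batf3 by -0.16 without RANKL (95% interval -0.54 to 0.22) and 0.41 with RANKL (0.03 to 0.78, adjusted p = 0.0789), neither called. The first was 0.11 without PRDX1 + no RANKL replicate 1. The second was called with a pseudocount of 0.1 (0.85) and was 0.27 without PRDX1 + RANKL replicate 1. RANKL in the presence of PRDX1 was not called for Batf3 either, except without PRDX1 + no RANKL replicate 1 (-0.61).

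Whether PRDX1 acted differently in the absence and presence of RANKL was tested as an interaction, the log2 fold change of PRDX1 with RANKL minus that without. It was called for 4 of the 9 members: higher for Atf3 (1.25, SE 0.10, adjusted p = 2.27e-05), where 4.50% of genes were called higher, and lower for Fosl2 (-1.95, SE 0.09, adjusted p = 8.21e-07), Junb (-1.47, SE 0.09, adjusted p = 3.82e-06) and Fos (-1.40, SE 0.10, adjusted p = 1.12e-05), where 4.35% were called lower. For Fos and Junb, PRDX1 gave 1.52 and 1.20 in M-CSF alone and 0.13 and -0.28 in the presence of RANKL, the latter pair not called. For Fosl2 it was PRDX1 in the presence of RANKL that gave the large change, and for Atf3 PRDX1 raised the gene in both settings. Jun had an interaction of 0.56 (adjusted p = 7.31e-04), under 1.5-fold, but was called with upper quartile scaling (0.59) and without PRDX1 + no RANKL replicate 1 (0.59) or no PRDX1 + RANKL replicate 2 (0.62). Fosl1, Jund, Batf and Batf3 did not pass, with interactions of 0.36, -0.41, 0.30 and 0.57 and adjusted p-values of 0.236, 0.092, 0.158 and 0.121. That of Batf3 was called without PRDX1 + no RANKL replicate 2 (0.84) and ranged from 0.29 to 0.84 over the libraries left out, that of Fosl1 ranged from 0.17 to 0.56, that of Jund from -0.58 to -0.25 and that of Batf from 0.19 to 0.40.

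**Figure D3:**
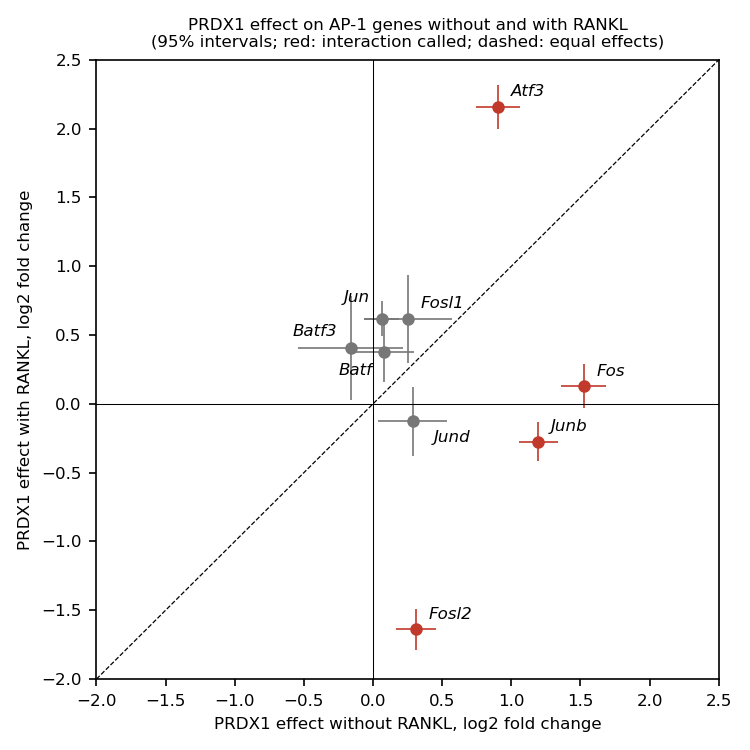
Log2 fold change of FPKM + 1 with PRDX1 in the absence of RANKL (x axis) against that in the presence of RANKL (y axis) for the 9 tested AP-1 genes, with 95% intervals; on the dashed line the effects are equal, and red points were called in the interaction test. Atf3 lies above the line (0.91 and 2.16), and Fos (1.52 and 0.13), Junb (1.20 and -0.28) and Fosl2 (0.31 and -1.64) lie below it.

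The remaining pairwise comparisons set both treatments against neither and RANKL alone against PRDX1 alone. PRDX1 + RANKL cells had higher Fos, Fosl1, Fosl2 and Junb than untreated cells, where 7.50% of all genes were called higher, and 0 members lower (5.34% of genes), although 3, Jun (-0.30), Atf3 (-0.55) and Batf3 (-0.50), had an unadjusted p-value under 0.05 in that direction by limma and Batf3 was called lower by voom (-0.86), after quantile normalization (-0.59) and with a pseudocount of 0.1 (-0.82). Without no PRDX1 + no RANKL replicate 1 or PRDX1 + RANKL replicate 1, Atf3 was called lower (-0.61 and -0.60), and without the latter so was Batf3 (-0.64). RANKL alone had higher Fos (log2 1.53), Fosl2 (1.97) and Junb (1.49) than PRDX1 alone, where 14.3% of genes were called higher, and lower Atf3 (-3.61), Jun (-0.98) and Batf3 (-0.74), where 10.7% were called lower. In this comparison, too, the balance over all genes depended on scaling, with 1677 higher and 1255 lower as given, 1231 and 1466 after quantile normalization and 1222 and 1483 after upper quartile scaling. The 6 members called in it were also called after both scalings, in the same directions. The Batf3 call fell under 1.5-fold without PRDX1 + no RANKL replicate 2 (-0.47).

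The makeup of the family's transcripts also differed between groups, described here from FPKM without a test. The 10 members together held 159 FPKM in untreated cells, 261 with PRDX1 alone, 385 with RANKL alone and 379.6 with both treatments (means of 2). The sum was therefore similar in the 2 groups with RANKL, while its parts differed. Jun was 53.2% of the Jun family in untreated cells, 39.1% with PRDX1 alone, 12.0% with RANKL alone and 20.2% with both, and Junb was 25.8%, 42.6%, 74.8% and 66.7%. In untreated cells and with PRDX1 alone, Fos was 65.4% and 81.5% of the Fos family, and with RANKL alone and both treatments 77.6% and 91.1%. Fosl2 was 29.2% of the Fos family in untreated cells, 15.5% with PRDX1 alone, 21.5% with RANKL alone and 6.95% with both. The ratio of Fos to Fosl2 FPKM, 3.61 with RANKL alone, was thus 13.1 with both treatments, and the ratio of Junb to Jun fell from 6.23 to 3.30. RNA shares say nothing of protein or of which dimers formed.

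**Figure D4:**
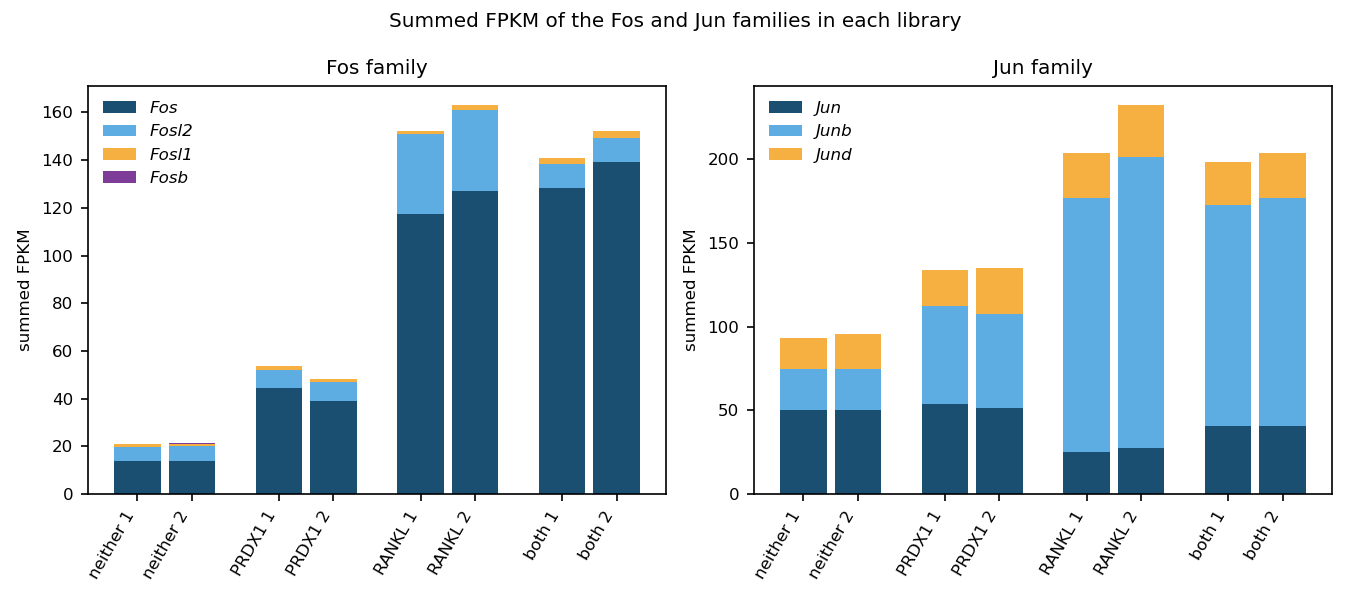
Summed FPKM of the Fos family (left) and the Jun family (right) in each of the 8 libraries, stacked by gene, with a linear axis from 0. The Fos family rose from a mean of 21.1 FPKM in untreated cells to 158 with RANKL alone and 147 with both treatments, with a thinner Fosl2 layer in the latter, and Junb replaced Jun as the largest layer of the Jun family in all groups but the untreated one.

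Among 9 other bZIP factors of the AP-1 and Maf groups, all tested, the largest changes were in Jdp2, a Jun dimerization partner that represses AP-1 sites and promotes osteoclast formation. Its mean FPKM was 11.6 in untreated cells, 11.2 with PRDX1 alone, 166 with RANKL alone and 34.8 with both treatments, so that, like Fosl2, it was highest with RANKL alone and next highest with both treatments. RANKL alone changed it by 3.72 on the log2 scale (adjusted p = 3.26e-11) and PRDX1 in the presence of RANKL by -2.22 (adjusted p = 6.20e-09). Maf, a macrophage factor, ran the other way: with RANKL alone it fell by 2.36 on the log2 scale, and PRDX1 in the presence of RANKL raised it by 1.24. In counts, to be read against the shares of all genes given above (11.8% higher and 9.96% lower for RANKL alone), RANKL alone raised 1 of the 9 and lowered 3 (median -0.008), RANKL with PRDX1 raised 1 and lowered 1 (4.52% and 3.98%), PRDX1 in the presence of RANKL raised 2 and lowered 1 (6.03% and 4.17%; median 0.29), and PRDX1 alone, with 3.80% and 1.99% of all genes called, raised 1, Batf2 (0.75, adjusted p = 0.0085), and lowered 0 by limma or voom (1 at an unadjusted p under 0.05, Maf at -0.28).

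Of the 23 tested MAP kinases and factors at AP-1 promoters, PRDX1 alone raised 0 and lowered 0 by limma at the 1.5-fold threshold (3.80% and 1.99% of all genes; median -0.17), while voom called 2 lower and an unadjusted p-value under 0.05 was reached by 1 higher and 11 lower. The 3 with the largest changes there were Mef2c (-0.57), Map2k6 (-0.55) and Mef2a (0.47), each with an adjusted p-value under 0.05. In the presence of RANKL, PRDX1 raised Mef2c (0.69) and Mef2a (0.60), MADS-box factors that bind the Jun promoter, and lowered Map2k3 (-0.61), a kinase that activates p38 (6.03% and 4.17% of all genes; median -0.06), the last not called after quantile or upper quartile scaling. Against the same 11.8% and 9.96% of all genes, RANKL alone raised 2 of the 23 (1 after quantile normalization) and lowered 6, led by Mef2c (-2.10), Map2k3 (0.93) and Map2k6 (-0.78), and in the presence of PRDX1 it raised 1 (0 after quantile or upper quartile scaling) and lowered 2, where 4.52% and 3.98% of all genes were called. Of the 2 IRF partners of Batf, Irf8, a macrophage factor that holds back osteoclast formation, had mean FPKM of 49.0 in untreated cells, 59.5 with PRDX1 alone, 7.75 with RANKL alone and 24.7 with both treatments, an order like that of Atf3. With RANKL alone it fell by 2.52 on the log2 scale, and PRDX1 in the presence of RANKL raised it by 1.55 (adjusted p = 2.72e-08). Irf4, at 0.984 FPKM or less, was not called by limma in these comparisons (-0.34 with RANKL alone), whereas voom called it lower with RANKL alone.

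Known AP-1 targets were listed in 2 sets, one of osteoclasts and one of inflammation and matrix, which were not tested against each other. Of the 10 osteoclast targets 9 were tested. RANKL alone raised those 9 (11.8% of all genes), led by Mmp9 (log2 7.81), Ctsk (7.29) and Acp5 (5.49), the matrix metalloproteinase, cathepsin and acid phosphatase of resorbing osteoclasts, which are osteoclast markers as well. Ctsk, Oscar and Ocstamp averaged 0.236 FPKM or less in either group without RANKL and passed the filter on low values only through the groups with it, Oscar only through RANKL alone, so these counts describe the genes tested and are no support for a change of the list. In the presence of RANKL, PRDX1 lowered the same 9 (4.17% of all genes), led by Ctsk (-4.19), Mmp9 (-3.43) and Itgb3 (-3.15), while RANKL in the presence of PRDX1 raised 7 and lowered 0 (4.52% and 3.98% of all genes). PRDX1 alone raised 3, Acp5, Atp6v0d2 and Dcstamp (3.80% of all genes), and lowered Itgb3 (1.99%). Nfatc1, a target of c-Fos in osteoclasts, fell from 52.9 FPKM with RANKL alone to 15.7 with both treatments (log2 -1.69, adjusted p = 1.30e-07), a comparison in which Fos had a log2 fold change of 0.13 and was not called.

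Of the 15 AP-1 targets of inflammation and matrix 12 were tested. PRDX1 alone raised 7 and lowered 0 (3.80% and 1.99% of all genes), led by the metalloproteinases Mmp13 (2.43) and Mmp12 (2.03) and the interleukin 1 antagonist Il1rn (1.62), while 3 were lower at an unadjusted p-value under 0.05, Ccnd1 (-0.48), Plau (-0.27) and Spp1 (-0.12), and 0 by voom. In the presence of RANKL it raised 10 and lowered 0 (6.03% and 4.17%), with Mmp13 (2.67), Mmp12 (2.52) and the chemokine Ccl2 (1.85) as the largest. Il1b, counted in both, averaged 0.248 FPKM or less in the groups without PRDX1 and 1.12 or more in those with it, and so passed the filter on low values only through the groups where it was high. RANKL alone lowered 7 (9.96% of all genes) and raised 1, Il1rn (11.8%), and in the presence of PRDX1 lowered 4 (3.98%) and raised 0 (4.52%). The mean FPKM of Mmp12 was 70.8 in untreated cells, 293 with PRDX1 alone, 37.1 with RANKL alone and 216 with both treatments. It was lowest with RANKL alone and highest with PRDX1 alone, as were Atf3 and Irf8. The neutrophil, stromal, B cell, dendritic cell and endothelial marker sums given above moved with PRDX1 beside these genes, and their part was not tested.

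The genes closest in pattern to the 4 members whose group means spanned at least 1 on the log2 scale were ranked by Pearson's r of log2(FPKM + 1) over the 8 libraries, among 1523 genes whose own means spanned as much, as a description. For Fos they were Resf1 (0.995), Cav1 (0.993) and Pirb (0.993), and for Junb Igf2r (0.998), Pltp (0.998) and Nfkbia (0.998), the last an inhibitor of NF-kB. Fosl2 was matched by Cd200 (0.997), Cd109 (0.996) and Atp6v1b2 (0.995), a subunit of the proton pump, and Atf3 by Folr2 (0.9998), Lipa (0.999) and Mgst1 (0.998). With 4 groups of 2 libraries, such values reflect mainly the order and spacing of 4 means.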

How the data were processed

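RNA from 8 samples of OCP cells, 2 in each of 4 groups, was sequenced with paired reads of 100 bases. The authors aligned the reads to mm10 (HISAT2 and HOMER are named in the submitters' processing notes, without versions), counted them on RefSeq exons without regard to strand, and deposited FPKM per gene, with 0 columns of other samples. FPKM multiplied by transcript length gave whole reads (tolerance 0.1 read, 100% of genes checked), with library totals of 27284666 to 46171750 reads; replicates differed by more than sampling noise (chi-square per degree of freedom 4.59 to 9.19). Depth and exact 95% intervals of read ratios cover counting error only.

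Log2(FPKM + 1) of the 11700 genes averaging 0.5 FPKM or more was fitted with limma 3.58.1 in R 4.3.3, with an intensity trend and one model of the 4 groups. All pairwise comparisons and the interaction were adjusted by Benjamini-Hochberg over all genes tested, and called at 0.05 and 1.5-fold, the cutoffs of the study's methods. Permuting 2 libraries against 2 could not reach 0.05. The fit was also run on simulated data with known changes. These were all larger than 1.5-fold, with the same spread setting for all genes, so the run does not cover calls near the threshold. The genes named were all 10 members, for each member spanning at least 1 log2 unit the 3 genes of most similar pattern, and in each list up to 3 genes with the largest change, plus genes named for their role with values known. Members and lists (other bZIP factors, MAP kinases and promoter factors, IRF partners, 2 lists of AP-1 targets, cell markers) were chosen with earlier results of these data known. Exons and overlaps came from GENCODE M21 and promoters from RefSeq (GRCm38.p6).

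Alternatives were a pseudocount of 0.1, no filter or a mean FPKM of at least 2, quantile and upper quartile scaling, voom on the recovered reads, the replicate number as a block, and leaving out each library. Same-numbered libraries deviated together with correlations of 0.0085 to 0.0965 over 11700 genes, so the numbers were not taken to pair samples.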

Additional observations from a re-analysis of the deposited data

Results flagged for a closer look

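The effect of PRDX1 differed between cells with and without RANKL, by the interaction term of limma, for 4 AP-1 genes. The difference in log2 fold change, with RANKL minus without, was -1.40 for Fos, -1.95 for Fosl2, -1.47 for Junb and 1.25 for Atf3. Leaving out each library in turn gave -1.49 to -1.30 for Fos, -1.997 to -1.90 for Fosl2, -1.57 to -1.38 for Junb and 1.17 to 1.33 for Atf3. Groups of 2 libraries were too small to test single libraries as outliers.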

How the results depend on the processing

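Of 931 values of the 9 tested members under alternatives, 906 kept their direction and side of the threshold, 14 newly passed it, 5 no longer passed it and 6 changed sign, none of the last called. The 6 were Batf3 for PRDX1 alone (0.11 without PRDX1 + no RANKL replicate 1, range -0.44 to 0.11 over libraries left out), Batf for RANKL alone (0.0127 without no PRDX1 + RANKL replicate 2, range -0.20 to 0.0127), Jund for RANKL in the presence of PRDX1 (-0.0706 without PRDX1 + no RANKL replicate 1, range -0.0706 to 0.26) and Fosl1 for RANKL alone against PRDX1 alone (-0.0031 with upper quartile scaling, -0.0192 without PRDX1 + no RANKL replicate 2, -0.14 when no PRDX1 + RANKL replicate 2 was left out, range -0.14 to 0.25). The cause was not tested. Leaving out each library gave 2 to 4 members called for PRDX1 in the presence of RANKL (2 without no PRDX1 + RANKL replicate 1, where Fosl1 and Jun fell under 1.5-fold), against 4 in all libraries, 3 for PRDX1 alone, 6 to 7 for RANKL alone, 3 to 5 for RANKL in the presence of PRDX1, 4 to 6 for both treatments against neither, 5 to 6 for RANKL alone against PRDX1 alone and 4 to 5 for the interaction. A pseudocount of 0.1 brought in Batf3 for PRDX1 in the presence of RANKL (0.85). With a mean FPKM of at least 2, Fosl1 and Batf3 were no longer tested, which ended their calls and left 3 members called for PRDX1 in the presence of RANKL, 5 for RANKL alone, 3 for RANKL in the presence of PRDX1, 3 for both treatments against neither and 5 for RANKL alone against PRDX1 alone. Fosb, Fosl1 and Batf3 had few reads.

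With the replicate block as a term, all 63 values of the members kept their direction and side of the threshold, and the members called were 3, 4, 6 and 4 for PRDX1 alone, PRDX1 in the presence of RANKL, RANKL alone and RANKL in the presence of PRDX1, as without it. The shared numbers did not pair the libraries by the check of deviations. These are the numbers of the labels and columns, the folder names in the header of the deposited table carry other numbers, and so a shared number may not mark a shared set.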
